A study of Mus musculus with 95 samples.

Results

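The collagen gene family was followed in the kidneys of SNF1 mice, which are bred from SWR and NZB parents and are prone to lupus nephritis. Its members are the genes with a symbol made of Col, a number, the letter a and a number, taken from probe sets that the array annotation gives to 1 gene. This gave 42 collagen genes out of 17097 genes named on the array, with 68 probe sets between them. Where a gene had several probe sets, as 21 of the collagen genes did, the one with the highest mean over all 95 arrays was used and the others served as a check. The collagen genes Col28a1 and Col6a6 had no probe set in that annotation. All mice were females of this strain. The treated mice received 1 intraperitoneal injection of pristane, a hydrocarbon oil, at 9 weeks of age. Of these, 9 were sampled after 2 weeks, 10 after 4, 8 after 8, 8 after 12 and 9 after 14. Age-matched mice without injection numbered 7 at the start (week 0), 10 after 2 weeks, 9 after 4, 10 after 8, 10 after 12 and 5 after 14. No mice injected with another oil or a vehicle were used as controls here, so an effect of pristane cannot be told apart from one of the injection.

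Collagens are built from 3 chains wound into a triple helix, and the chains are encoded by separate genes. The fibrillar types (types I, II, III, V, XI, XXIV and XXVII) form the fibrils of connective tissue. Type IV forms the sheet-like network of basement membranes, and types XV and XVIII lie at or near these membranes. Type VI forms beaded filaments beside cells, the FACIT types (fibril-associated collagens with interrupted helices) sit on the surface of fibrils, and the transmembrane types span the cell membrane. In the kidney, type IV collagen of the glomerular basement membrane is part of the filter, while fibrillar collagens are sparse in the healthy interstitium and accumulate in fibrosis.

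Values are log2 expression after RMA, a method that corrects background, normalizes and summarizes the probes of a probe set. They stop at a floor of 2.2, and array medians lay between 4.22 and 4.57. The 4 kidney tubule markers measured averaged 9.80 to 10.85 per array over all groups. One collagen gene, Col12a1, lay at the floor on every array, 7 genes, Col12a1 included, lay there on 50% or more of the arrays, and 32 were above it on all. The array of untreated mouse 10 of week 12 stood apart from its group in collagen and macrophage genes. It also had the highest median of all arrays (4.57). Its median correlation with the other arrays, 0.980, was the lowest of its group. The main week 12 collagen calls, the slope over untreated mice and the Col1a1 mean of that group are given with and without this mouse. In whole-kidney RNA, more cells of a type and more RNA per cell cannot be told apart.

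At week 14 the pristane kidneys had higher levels of the type I and III chains Col1a1 and Col3a1, of some type IV and V chains, of the 3 type VI chains Col6a1, Col6a2 and Col6a3, and of Col8a1, Col15a1 and Col18a1. Of the 42 collagen genes 12 were higher than in untreated kidneys of the same week at an adjusted p under 0.05, against 6.97% of all genes on the array, and 11 of the 12 by more than 2-fold. Of the collagen genes 0 were lower, against 4.80% of all genes, and 2 had a negative change at an unadjusted p under 0.05 (Col4a4 and Col27a1), against 16.5% of all genes. The test was limma, fitted on the mice of that week and adjusted by the Benjamini-Hochberg method over 45037 probe sets. By class, 4 of 11 fibrillar genes, 4 of 8 basement membrane genes, 3 of 6 beaded and anchoring genes and 1 of 3 short-chain network genes rose. The counts were 0 of 9 for the FACIT genes, 0 of 4 for the transmembrane genes and 0 of 1 for the remaining gene, Col26a1, on the probe sets chosen by the rule. In 9 of the 12 genes every pristane kidney was above every untreated kidney, which held for 3.2% of all genes. The median change of the collagen genes was 0.03 on the log2 scale, against 0.00 for all genes, so most of the family lay near no change while a minority changed strongly. Many of the genes near no change were hardly above the floor. The 4 transmembrane genes averaged 2.36 to 3.88 over all arrays, below the lowest array median of 4.22. The median therefore does not show that well-measured collagen genes stayed unchanged. These p-values measure the spread between mice, with 1 array per mouse.

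**Figure D1:**
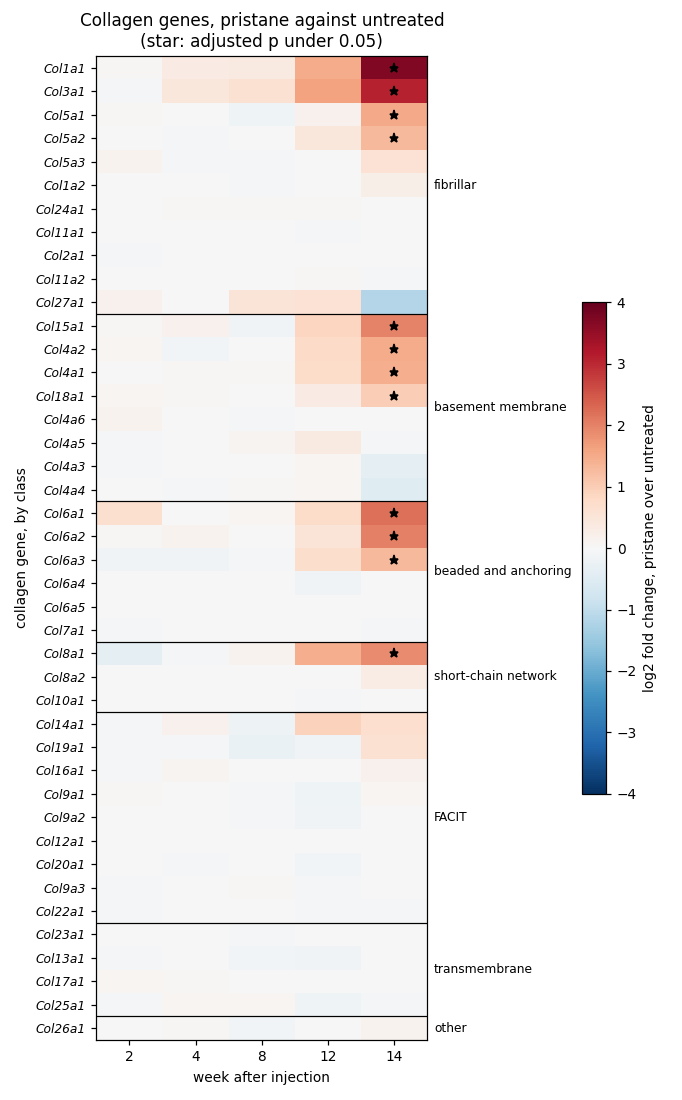
Log2 fold change (pristane over untreated) of each of the 42 collagen genes, in rows by class, at weeks 2, 4, 8, 12 and 14, in columns. Stars mark an adjusted p under 0.05 in limma. The 12 stars all stand at week 14, and the strongest colours are those of Col1a1 (3.70) and Col3a1 (3.09).

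The fibrillar genes held the highest rises. Col1a1, which encodes the main chain of type I collagen, the chief fibril former of scar tissue, ranged from 7.99 to 11.14 with a median of 10.42 in the 9 pristane kidneys of week 14, against 6.34, 6.52, 6.36, 5.75 and 6.40 in the 5 untreated kidneys. No pristane kidney overlapped with the untreated ones, although mice 1 and 2 lay more than 1 log2 unit below the other pristane mice. The difference was 3.70 ± 0.53 on the log2 scale (SE, adjusted p = 0.00524, limma), a 13-fold change. Col3a1, the single chain of type III collagen, which forms thin fibrils together with type I, ranged from 9.65 to 12.04 with a median of 11.74 in pristane kidneys, against 8.34, 8.23, 8.47, 7.35 and 8.24 in untreated kidneys. Here too all pristane kidneys were higher, by 3.09 ± 0.43 (8.53-fold, adjusted p = 0.00460, limma), and its other probe set rose by 4.11.

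Type V collagen starts type I fibrils and limits their width, and 2 of its 3 chains rose. Col5a1 ranged from 6.12 to 8.27 with a median of 7.50 in pristane kidneys of week 14, against 6.03, 5.95, 5.99, 5.50 and 6.05 in untreated kidneys. The lowest pristane kidney, that of mouse 1, exceeded the highest untreated kidney by less than 0.1, and the difference of means was 1.52 ± 0.33 (2.87-fold, adjusted p = 0.0222, limma). Of its other probe sets 1 rose by 1.41, and the other had a change of 0.60 that did not pass (adjusted p = 0.107). Col5a2 ranged from 8.59 to 9.61 with a median of 9.20 in pristane kidneys, against 7.68, 8.49, 7.66, 7.55 and 8.07 in untreated kidneys. The groups did not overlap and the spread of the pristane kidneys was narrow, with a difference of 1.28 ± 0.18 (2.43-fold, adjusted p = 0.00502, limma). Col5a3, the chain of type V with more restricted expression, lay near the floor at a mean of 3.07 ± 0.46 in pristane and 2.50 ± 0.07 in untreated kidneys (SD), a difference of 0.56 that did not pass (adjusted p = 0.108).

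Col1a2, which encodes the second chain of type I collagen, depends on the probe set. The probe set that the array annotation gives for it lay at the floor on 86 of 95 arrays, and its change at week 14 was 0.24 (adjusted p = 0.431, limma). The study's list of changed genes names a pair of other probe sets for Col1a2, which the annotation used here does not list. They were not chosen by the rule and entered that list through these samples, so their values are a description, with no test. The brighter of them averaged 10.40 ± 0.96 in pristane and 7.69 ± 0.24 in untreated kidneys of week 14 (SD, n = 9 and 5), a difference of 2.71 on the log2 scale, and the other averaged 10.06 ± 1.24 in pristane and 6.62 ± 0.41 in untreated kidneys, a difference of 3.44. The same list names a further probe set for Col1a1, with a difference of 3.27, and a probe set for Col12a1.

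The remaining fibrillar genes did not follow types I, III and V. Col2a1, Col11a1, Col11a2 and Col24a1, of which types II and XI are known from cartilage, had means within 1 log2 unit of the floor and changes from -0.03 to 0.01 at week 14. Col27a1, which encodes a fibrillar chain known from cartilage, went the other way. It ranged from 6.27 to 8.67 with a median of 6.90 in pristane kidneys, against 8.68, 8.35, 7.96, 8.62 and 8.20 in untreated kidneys. Mice 1 and 2 lay within the untreated range and the other 7 below it. The difference of -1.17 ± 0.43 did not pass (adjusted p = 0.110, limma, 95% interval from -2.10 to -0.24), nor did its other probe set at -0.82 (adjusted p = 0.172). Without pristane mouse 1 or without pristane mouse 2 Col27a1 was lower at an adjusted p under 0.05.

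**Figure D2:**
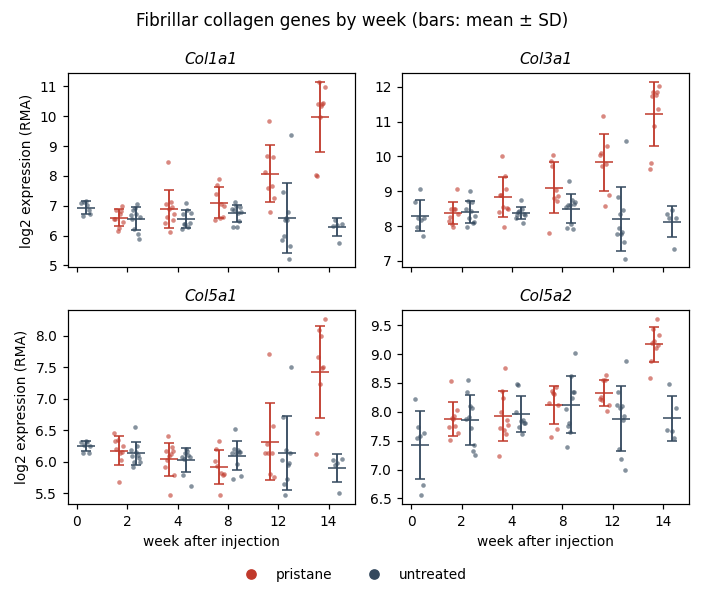
Log2 expression of Col1a1, Col3a1, Col5a1 and Col5a2 (vertical axes) in each kidney, by week after injection, with pristane to the left of untreated at each week and bars for mean ± SD. At week 14 the pristane kidneys of all 4 genes lie above the untreated kidneys, and at week 12 1 untreated kidney, at 9.38 in Col1a1, lies among the highest pristane kidneys.

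Col3a1 and Col5a2 are neighbours on chromosome 1, in the mouse assembly GRCm38.p6, and both passed. Sequences before the annotated starts of 3 collagen genes are shown. Col3a1 and Col8a1 are among the genes that rose at week 14, Col1a2 encodes the partner chain of Col1a1, and each carries another promoter motif. They come from RefSeq with assembly GRCm38.p6, run 5′ to 3′ on the strand of the gene and cover the 150 bases before the start. Capitals mark the CCAAT box in Col1a2, at chr6:4505468-4505617 on the plus strand, the TATA box, with the letters TATAAA, in Col3a1, at chr1:45311388-45311537 on the plus strand, and the letters CCGCCC, which are the GC box read on the opposite strand, in Col8a1, at chr16:57754738-57754887 on the minus strand.
Col1a2: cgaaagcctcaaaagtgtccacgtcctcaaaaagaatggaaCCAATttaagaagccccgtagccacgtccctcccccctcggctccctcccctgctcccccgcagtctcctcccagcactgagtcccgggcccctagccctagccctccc
Col3a1: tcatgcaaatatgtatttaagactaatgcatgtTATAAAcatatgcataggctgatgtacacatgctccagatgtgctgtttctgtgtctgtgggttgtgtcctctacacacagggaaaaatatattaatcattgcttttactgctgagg
Col8a1: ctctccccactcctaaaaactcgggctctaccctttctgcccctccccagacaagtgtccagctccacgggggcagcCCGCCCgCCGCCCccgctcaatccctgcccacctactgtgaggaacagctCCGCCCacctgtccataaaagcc
The CCAAT box of Col1a2 starts 109 bases and the TATA box of Col3a1 117 bases before the annotated start, and the stretch of Col8a1 holds 3 GC boxes. Both strands of the 250 bases before the start were searched in 33 collagen genes with an entry and in 27025 genes in all. CCAAT or ATTGG was found in 12 collagen genes (36.4%, against 34.5% of all promoters), TATAAA or TTTATA in 5 (15.2%, against 13%) and GGGCGG or CCGCCC in 20 (60.6%, against 32.9%). Of the 10 genes that rose at week 14 and have an entry, 3 held a CCAAT box, 1 a TATA box and 5 a GC box. A match is a description of the letters, not of a bound site.

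In the basement membrane class the broadly expressed type IV chains rose, while the chains of the mature glomerular network did not. Col4a1 and Col4a2 encode the chains of the type IV network found in nearly all basement membranes and in the mesangium, and they lie head to head on chromosome 8. Col4a1 ranged from 10.21 to 12.01 with a median of 11.61 in pristane kidneys of week 14, against 10.17, 9.89, 9.90, 9.70 and 9.67 in untreated kidneys. Col4a2 ranged from 9.49 to 11.14 with a median of 10.80 in pristane kidneys, against 9.33, 9.16, 9.01, 8.94 and 9.01 in untreated kidneys. In neither gene did the groups overlap, and mouse 2 was the lowest pristane kidney in both. Col4a1 was higher by 1.45 ± 0.28 (2.74-fold, adjusted p = 0.0144) and Col4a2 by 1.49 ± 0.27 (2.80-fold, adjusted p = 0.0121, limma).

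Col4a3, Col4a4 and Col4a5 encode the chains that podocytes assemble into the network of the glomerular basement membrane. Col4a3 ranged from 10.60 to 11.86 with a median of 11.01 in pristane kidneys of week 14, against 11.70, 11.39, 11.44, 11.68 and 11.62 in untreated kidneys. The difference of -0.35 ± 0.21 did not pass (adjusted p = 0.368, 95% interval from -0.81 to 0.11), with pristane kidneys on both sides of the untreated range. Its neighbour Col4a4, which lies head to head with it on chromosome 1, ranged from 9.81 to 10.81 with a median of 10.26 in pristane kidneys, against 10.66, 10.97, 10.63, 10.72 and 10.75 in untreated kidneys. Of the pristane kidneys 8 lay below every untreated kidney and mouse 2 lay within their range, but the difference of -0.48 ± 0.16 missed the threshold (adjusted p = 0.0896, limma, 95% interval from -0.83 to -0.12). Col4a5 had 9.04 ± 0.16 in pristane and 9.09 ± 0.13 in untreated kidneys (SD), a difference of -0.06 with a 95% interval from -0.24 to 0.12. Col4a6, a chain of other epithelial membranes, lay low at 3.17 ± 0.08 in pristane and 3.17 ± 0.44 in untreated kidneys. At week 14 the podocyte markers averaged 7.51 to 8.67 per mouse in pristane and 8.12 to 8.56 in untreated kidneys, and 0 of 5 measured markers passed. Their part in the levels of Col4a3 and Col4a4 was not tested.

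**Figure D3:**
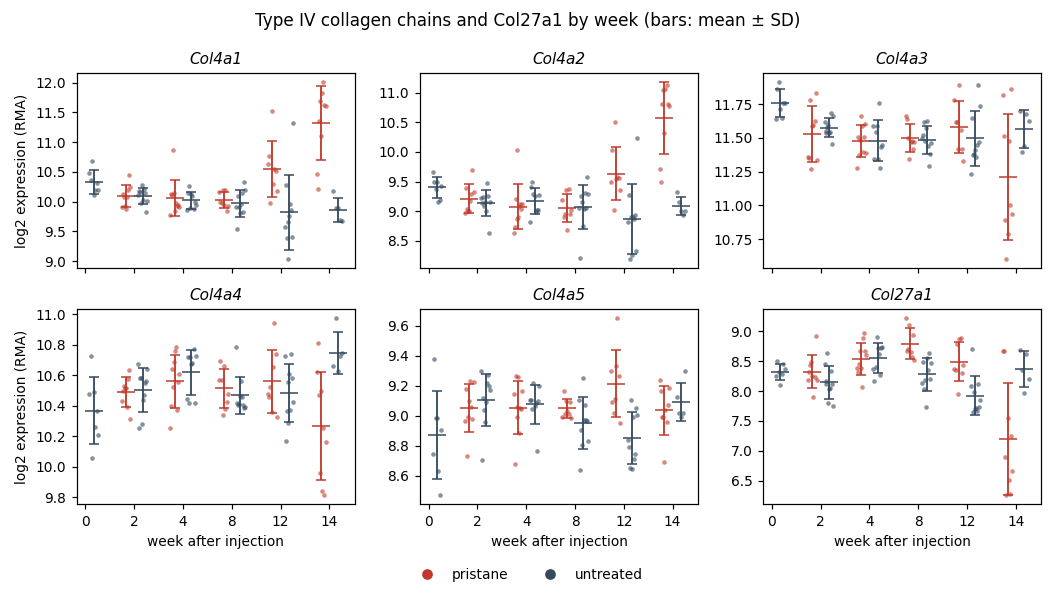
Log2 expression (vertical axes) of the type IV chains Col4a1 to Col4a5 and of Col27a1 in each kidney, by week after injection, with pristane to the left of untreated and bars for mean ± SD. At week 14 Col4a1 and Col4a2 lie higher in pristane kidneys, and Col4a3, Col4a4 and Col27a1 spread downwards without passing the test.

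The multiplexins Col15a1 and Col18a1 both rose. Col15a1 encodes type XV collagen, which links basement membranes to the fibrils beneath, and ranged from 6.50 to 8.74 with a median of 8.50 in pristane kidneys, against 6.13, 6.0, 6.34, 6.13 and 6.25 in untreated kidneys. No values overlapped, the pristane kidney closest to the untreated range being that of mouse 2, and the difference was 1.97 ± 0.34 (3.93-fold, adjusted p = 0.00955, limma). Col18a1 encodes type XVIII collagen, whose end fragment is endostatin, and ranged from 8.83 to 10.19 with a median of 9.67 in pristane kidneys, against 8.76, 8.74, 8.55, 8.43 and 8.60 in untreated kidneys. The gap between the groups was under 0.1 and the difference 0.98 ± 0.21, the single call under 2-fold (1.97-fold, adjusted p = 0.0207). Leaving out untreated mouse 2, 3, 4 or 5 took Col18a1 over the threshold, with a highest adjusted p of 0.0629.

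All 3 of the classical type VI chains rose. Col6a1, Col6a2 and Col6a3 encode the chains that assemble into 1 type VI molecule, and the first 2 of these genes are neighbours on chromosome 10. Col6a1 ranged from 6.54 to 9.08 with a median of 8.22 in pristane kidneys of week 14, against 6.07, 5.92, 5.61, 5.77 and 5.55 in untreated kidneys. Col6a2 ranged from 3.98 to 7.15 with a median of 6.29 in pristane kidneys, against 3.97, 3.86, 3.81, 3.96 and 4.12 in untreated kidneys. Col6a3 ranged from 6.86 to 8.35 with a median of 8.07 in pristane kidneys, against 6.91, 6.74, 6.63, 6.58 and 5.83 in untreated kidneys. In Col6a1 the groups were apart, while 1 pristane kidney lay within the untreated range in Col6a2 (mouse 2) and in Col6a3 (mouse 1). The differences were 2.21 ± 0.40 for Col6a1 (4.61-fold, adjusted p = 0.0120), 2.00 ± 0.47 for Col6a2 (4.00-fold, adjusted p = 0.0279) and 1.28 ± 0.27 for Col6a3 (2.43-fold, adjusted p = 0.0185, limma). The Col6a2 call was lost in 8 of the 14 fits that left out 1 mouse, with a highest adjusted p of 0.0729. The other probe set of Col6a2 had a change of 1.29 and did not pass (adjusted p = 0.0838). Col6a4, Col6a5 and the anchoring fibril gene Col7a1 had changes from -0.05 to 0.01.

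Of the short-chain network genes Col8a1, known from vessel walls and mesangial cells, rose. It ranged from 6.70 to 9.67 with a median of 9.05 in pristane kidneys of week 14, against 7.26, 7.22, 6.60, 6.62 and 5.86 in untreated kidneys. Mouse 2 of the pristane group lay within the untreated range, and the difference was 1.90 ± 0.49 (3.72-fold, adjusted p = 0.0378, limma). This was the least stable of the calls, since it was lost in 11 of the 14 fits that left out 1 mouse, with a highest adjusted p of 0.0918. Its other probe sets, at 4.53 and 2.92 in pristane kidneys and 4.44 and 2.75 in untreated kidneys, had changes of 0.08 and 0.17 and did not pass. Col8a2 lay at the floor on 71 arrays with a change of 0.29, and Col10a1, the hypertrophic cartilage collagen, had a change of 0.02.

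Among the FACIT genes Col14a1, which encodes a collagen of fibril surfaces, came closest to the threshold. It ranged from 6.95 to 7.76 with a median of 7.67 in pristane kidneys of week 14, against 6.68, 7.39, 7.09, 6.77 and 6.15 in untreated kidneys. Of the 9 pristane kidneys 6 were above every untreated kidney, and the difference was 0.68 ± 0.20 (adjusted p = 0.0586, limma, 95% interval from 0.24 to 1.12). Col12a1, another collagen of fibril surfaces, was at the floor in the probe set of the annotation. The probe set that the study's list names for it had 6.53 ± 1.13 in pristane and 4.2 ± 0.04 in untreated kidneys (SD), a difference of 2.34 that is a description for the same reason as for Col1a2. Col16a1 (0.18) and Col19a1 (0.60, adjusted p = 0.388) did not pass, and the other 5 FACIT genes had changes from -0.07 to 0.07. The transmembrane genes Col13a1, Col17a1, Col23a1 and Col25a1 had changes from -0.04 to 0.03, and Col26a1 had 0.13.

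The rise was not of the same size in every pristane kidney of week 14. Mice 1 and 2 were among the lowest 3 of the 9 pristane kidneys in all 12 genes that rose, and 1 of these mice was the lowest in each. Mouse 4 was the highest in 5 of the 12 genes and mouse 7 in 4. With both mice 1 and 2 left out, a choice made after seeing the data, 14 collagen genes were higher and 2 lower, against 11.8% and 16.3% of all genes. Leaving out mouse 2 alone gave the same counts, against 10.1% and 12.2% of all genes, the further genes being Col5a3 and Col14a1, which were higher, and Col4a4 and Col27a1, which were lower. Among the untreated kidneys, mouse 4 was the lowest in 6 of the 12 genes. Without untreated mouse 3 or untreated mouse 4, 7 of the 12 genes passed, while the share of all genes that were higher fell to 2.62% and 2.80%. The 7 were Col1a1, Col3a1, Col4a1, Col4a2, Col5a2, Col6a1 and Col15a1. These 7 also passed when any other single mouse of week 14 was left out.

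**Figure D4:**
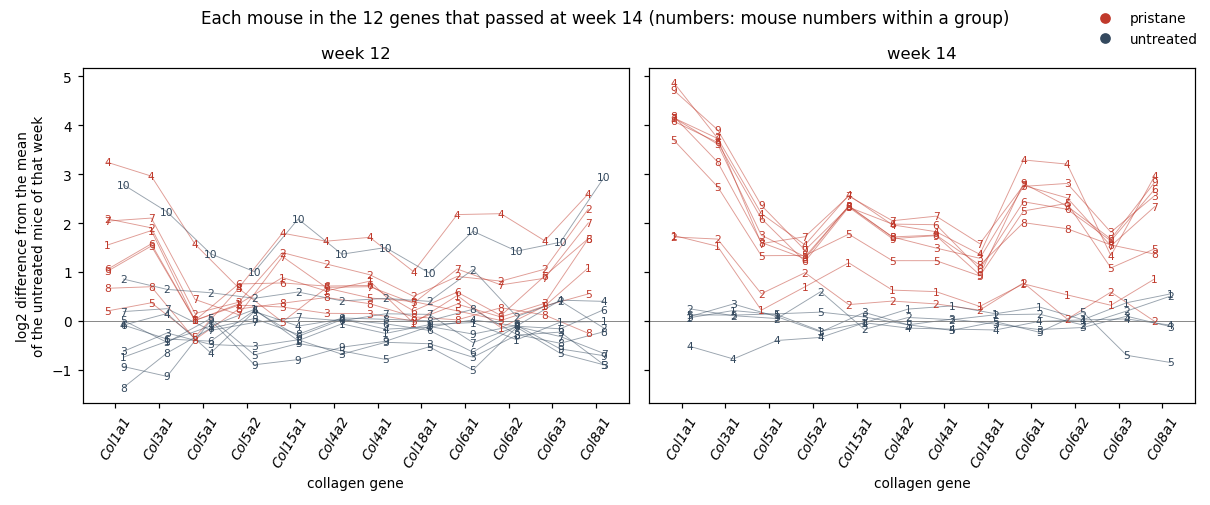
Difference of each kidney from the mean of the untreated kidneys of the same week (log2 units, vertical axis) in the 12 collagen genes that rose at week 14 (horizontal axis), for week 12 on the left and week 14 on the right. Numbers are mouse numbers within a group and lines join the values of a mouse. At week 14 pristane mice 1 and 2 lie closest to the untreated mice, and at week 12 untreated mouse 10 lies among the highest pristane mice.

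Before week 14, no collagen gene passed in the comparison of pristane with untreated kidneys. At week 2 the count was 0 higher, against 0.404% of all genes, with 2 at an unadjusted p under 0.05, Col6a1 (0.64) and Col17a1 (0.08), against 4.68% of all genes. At week 4 it was 0, against 0.246% of all genes, with Col3a1 (0.45) and Col16a1 (0.09) at an unadjusted p under 0.05, against 3.75% of all genes. At week 8 it was 0, against 0.181% of all genes, with Col27a1 (0.52) and Col3a1 (0.60) higher and Col9a2 (-0.04) lower at an unadjusted p under 0.05, against 3.12% and 1.03% of all genes. In pristane kidneys Col1a1 averaged 6.60 ± 0.28 after 2 weeks, 6.89 ± 0.63 after 4, 7.10 ± 0.52 after 8, 8.08 ± 0.96 after 12 and 9.97 ± 1.17 after 14 (SD). In untreated kidneys its means lay between 6.27 ± 0.30 (week 14) and 6.94 ± 0.20 (week 0), with 6.59 ± 1.17 in week 12 (6.28 ± 0.67 without mouse 10). The ranges of mean ± SD overlapped between pristane and untreated kidneys at weeks 2, 4 and 8, and at week 12 only with untreated mouse 10 included.

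At week 12 the count was 0 of 42, against 0.0526% of all genes, and 10 collagen genes, all higher in pristane kidneys, had an unadjusted p under 0.05, against 6.46% of all genes. Col3a1 ranged from 8.57 to 11.16 with a median of 9.92 in pristane kidneys, against 7.07 to 10.44 with a median of 7.89 in untreated kidneys. The groups overlapped through untreated mouse 10, whose 10.44 was followed by 8.85 in untreated mouse 2. The difference was 1.62 ± 0.41 and did not pass (adjusted p = 0.329, limma). Col1a1 (1.48), Col8a1 (1.46), Col14a1 (0.92), Col15a1 (0.85), Col4a2 (0.76), Col4a1 (0.73), Col6a3 (0.70), Col27a1 (0.57) and Col4a5 (0.36) were the others, with adjusted p-values from 0.329 to 0.762. Untreated mouse 10 was the highest of the 10 untreated kidneys of week 12 in all 12 genes that rose at week 14. It also had the highest macrophage marker mean of that group, 8.61, where the median was 5.01, and the highest means of the fibroblast (6.36) and endothelial (7.70) markers. The macrophage mean ranged from 5.87 to 7.28 in pristane and 4.53 to 8.61 in untreated kidneys of week 12, and the fibroblast mean from 5.55 to 6.89 in pristane and 5.44 to 6.36 in untreated kidneys. Without this mouse 6 collagen genes were higher at week 12, Col1a1, Col3a1, Col4a1, Col4a2, Col8a1 and Col15a1, against 2.25% of all genes, with differences from 0.90 (Col4a1) to 1.87 (Col3a1) on the log2 scale. Mouse 10 was picked out by its values in these same genes, and leaving out the highest control favours calls of higher. The fit without it is therefore a description. None of the other 17 mice of week 12 changed the count when left out. In pristane kidneys of week 12, mouse 4 was the highest in 11 of the 12 genes.

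Set against the earlier time points of the treated mice, the level at week 14 was higher in 15 collagen genes than in pristane kidneys of week 2, against 14.8% of all genes, and lower in 1, Col27a1, against 20.3% of all genes. The 15 were the 12 genes named above with Col14a1 (1.10), Col19a1 (0.82) and Col16a1 (0.29). Over the alternatives run, among them the mean of all probe sets of a gene, Col14a1 ranged from 0.51 to 1.18 and Col19a1 from 0.27 to 0.95. Against pristane kidneys of week 12, 1 collagen gene was higher, against 1.73% of all genes. This was Col5a2, at 9.17 ± 0.30 at week 14 and 8.32 ± 0.23 at week 12 (SD, n = 9 and 8), a difference of 0.85 ± 0.13 (adjusted p = 0.0324, limma), with 13 collagen genes higher at an unadjusted p under 0.05, against 12.5% of all genes. Without pristane mouse 2 of week 14, 13 genes were higher in this comparison, against 7.06% of all genes. Without pristane mouse 1 of week 14 the count was 11, against 6.0% of all genes, and without pristane mouse 4 of week 12 it was 10, against 3.42%. Leaving out other mice left 1 or 0 genes. Between weeks 14 and 2 of the pristane mice 9 of 10 adrenal markers were lower, 6 of 6 macrophage markers were higher and 1 of 3 fat markers was lower. The adrenal mean per mouse ranged from 3.47 to 6.22 with a median of 3.63 at week 14, and from 3.76 to 8.63 with a median of 7.52 at week 2. The macrophage mean ranged from 6.57 to 8.52 at week 14 and 4.90 to 5.45 at week 2, and the fat mean from 5.62 to 7.87 at week 14 and 7.29 to 9.03 at week 2. The part of these tissues in the comparison was not tested.

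Whether the effect of pristane itself differed between weeks was tested as an interaction. From week 2 to week 14 the effect grew in 12 collagen genes, the same 12 as above, against 8.21% of all genes, and was lower at week 14 in 2, Col27a1 and Col4a4, against 8.00% of all genes. For Col27a1 the effect at week 14 minus that at week 2 was -1.35 ± 0.39 (adjusted p = 0.0224), and for Col4a4 it was -0.46 ± 0.15 (adjusted p = 0.0466, limma). The Col4a4 call was lost in 24 of the 33 fits that left out 1 mouse, with a highest adjusted p of 0.116. At week 2 the adrenal mean ranged from 3.76 to 8.63 with a median of 7.52 in pristane and from 3.66 to 8.18 with a median of 3.93 in untreated kidneys, and 9 of 10 adrenal markers differed at an unadjusted p under 0.05. None of the adrenal markers passed in the interaction and 5 of 6 macrophage markers were higher in it. The part of either in these differences was not tested. Col27a1 had a positive difference at weeks 8 (0.52) and 12 (0.57) and a negative difference at week 14 (-1.17), of which none passed on its own. The difference between the effects at weeks 14 and 12 passed in 0 collagen genes and in 0 genes of the array, with 9 collagen genes higher and 4 lower at an unadjusted p under 0.05, against 5.5% and 14.3% of all genes. Col27a1 (-1.74, adjusted p = 0.0716) came closest. Without pristane mouse 1 or 2 of week 14, 4 genes were higher (Col1a1, Col5a1, Col5a3 and Col6a2) and 3 lower (Col4a4, Col4a5 and Col27a1) in this test. The shares of all genes were 1.21% higher and 6.27% lower without mouse 1, and 1.71% higher and 7.97% lower without mouse 2.

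In untreated mice several of the same genes were lower at week 14 than at week 0. Of the collagen genes 6 were lower, against 4.91% of all genes, and 2 were higher, against 11.2% of all genes. Col18a1 had 8.61 ± 0.14 at week 14 and 9.14 ± 0.09 at week 0 (SD, n = 5 and 7), a change of -0.52 (adjusted p = 0.00111, limma). Col1a1 had 6.27 ± 0.30 at week 14 and 6.94 ± 0.20 at week 0, a change of -0.67 (adjusted p = 0.0126). In both genes every kidney of week 14 was below every kidney of week 0. This held for 5 of the 42 collagen genes, against 2.56% of all genes. Col6a1 (-0.62), Col4a1 (-0.47) and Col5a1 (-0.35) were lower too. Col19a1, a FACIT gene known from muscle and brain, had 3.68 ± 0.51 at week 14 and 5.09 ± 0.25 at week 0, a change of -1.41 (adjusted p = 0.00296, limma). It averaged 3.53 ± 0.12 in untreated kidneys as early as week 2. At week 12 its untreated mean was higher again, at 4.5 ± 0.6 without mouse 10 (SD, n = 9). Col19a1 has 3 probe sets, and these values are those of the brightest. Over the alternatives run, among them the mean of its probe sets, the change from week 0 to week 14 ranged from -1.63 to -0.48.

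The genes higher in untreated kidneys of week 14 than of week 0 were Col8a1 and Col4a4. Col8a1 had 7.26, 7.22, 6.60, 6.62 and 5.86 at week 14, against 4.91 to 6.09 with a median of 5.10 at week 0, a change of 1.5 ± 0.27 (2.83-fold, adjusted p = 0.00654, limma). The groups overlapped only through mouse 5 of week 14 and mouse 7 of week 0. Over the alternatives run, among them the mean of its 3 probe sets, the change of Col8a1 ranged from 0.38 to 1.72. Col4a4 changed by 0.38 (adjusted p = 0.0439), a call that held in 1 of the 12 fits without 1 mouse. Over all 51 untreated mice, the slope per week passed in 2 collagen genes, both downward, against 7.37% of all genes, with Col4a1 at -0.03 and Col18a1 at -0.03 per week. It passed in 0 upward, against 4.13% of all genes, Col8a1 having 0.06 per week (adjusted p = 0.0533). Without week 0 neither downward slope passed (adjusted p = 0.211 for Col4a1 and 0.378 for Col18a1), and that of Col4a1 was lost in 4 of 6 fits without 1 week. Without untreated mouse 10 of week 12, 4 genes had a downward slope (Col4a1, Col4a2, Col6a1 and Col18a1), against 8.17% of all genes, and Col8a1 had 0.04 per week (adjusted p = 0.0845). The 3′ minus 5′ difference of the Gapdh control probe sets, a measure of RNA quality, was 1.01 to 1.13 in untreated kidneys of week 14, below the 1.26 to 1.48 of week 0 and the 1.15 to 1.52 of pristane kidneys of week 14. The same measure from Actb overlapped between the groups, at 2.45 to 2.67, 2.33 to 2.99 and 2.31 to 2.83 in that order of groups. Of 6 macrophage markers 3 were also higher in untreated kidneys of week 14 than of week 0. The part of RNA quality or of macrophages in the collagen results was not tested.

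The proteins that make, bind or accompany collagen were followed in 4 lists, chosen with earlier results of these data known. Before the chains are wound, enzymes of the endoplasmic reticulum modify them, and outside the cell lysyl oxidases cross-link them. Of 30 measured genes for making and processing collagen 7 rose and 1 fell at week 14, against 6.97% and 4.80% of all genes, with a median change of 0.07. Lox, a lysyl oxidase, rose by 2.90 (adjusted p = 0.0157), Pxdn, which cross-links type IV collagen, by 1.08, Loxl1 by 0.91 and the collagen chaperone Serpinh1 by 0.71, while Colgalt2, which adds galactose to collagen, fell by 0.80 on the log2 scale. Of 11 genes for collagen receptors and uptake 5 rose and 0 fell, with a median of 0.48. The largest rises were those of Mrc1 (2.55) and Mrc2 (1.11), endocytic receptors that bind collagen, and of Lair1 (2.29), an inhibitory collagen receptor of leukocytes, followed by the integrin subunit Itgb1 (0.77).

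Of 13 partners of the basement membrane 5 rose and 0 fell, with a median of 0.36. Smoc2 rose by 1.22, the linker nidogen Nid1 by 1.18, and the proteoglycans Agrn by 0.82 and Hspg2 by 0.55. Of 9 partners of collagen fibrils 6 rose and 0 fell, with a median of 1.13, among them the matrix glycoproteins Tnc (2.81), Fn1 (2.22) and Thbs2 (1.60) and the proteoglycan Bgn (1.13). The median over all genes was 0.00. At weeks 2, 4, 8 and 12, 0 genes of these 4 lists passed, against 0.404%, 0.246%, 0.181% and 0.0526% of all genes higher. At week 12, 10 of 30, 4 of 11, 5 of 13 and 7 of 9 had an unadjusted p under 0.05 in limma, in either direction. The shares of all genes were 6.46% higher and 1.6% lower. Week 12 values of these lists without untreated mouse 10 were not computed. In the comparison of untreated kidneys at weeks 14 and 0, 5, 1, 1 and 0 genes of the lists were higher and 1, 0, 2 and 0 lower, against 11.2% and 4.91% of all genes.

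**Figure D5:**
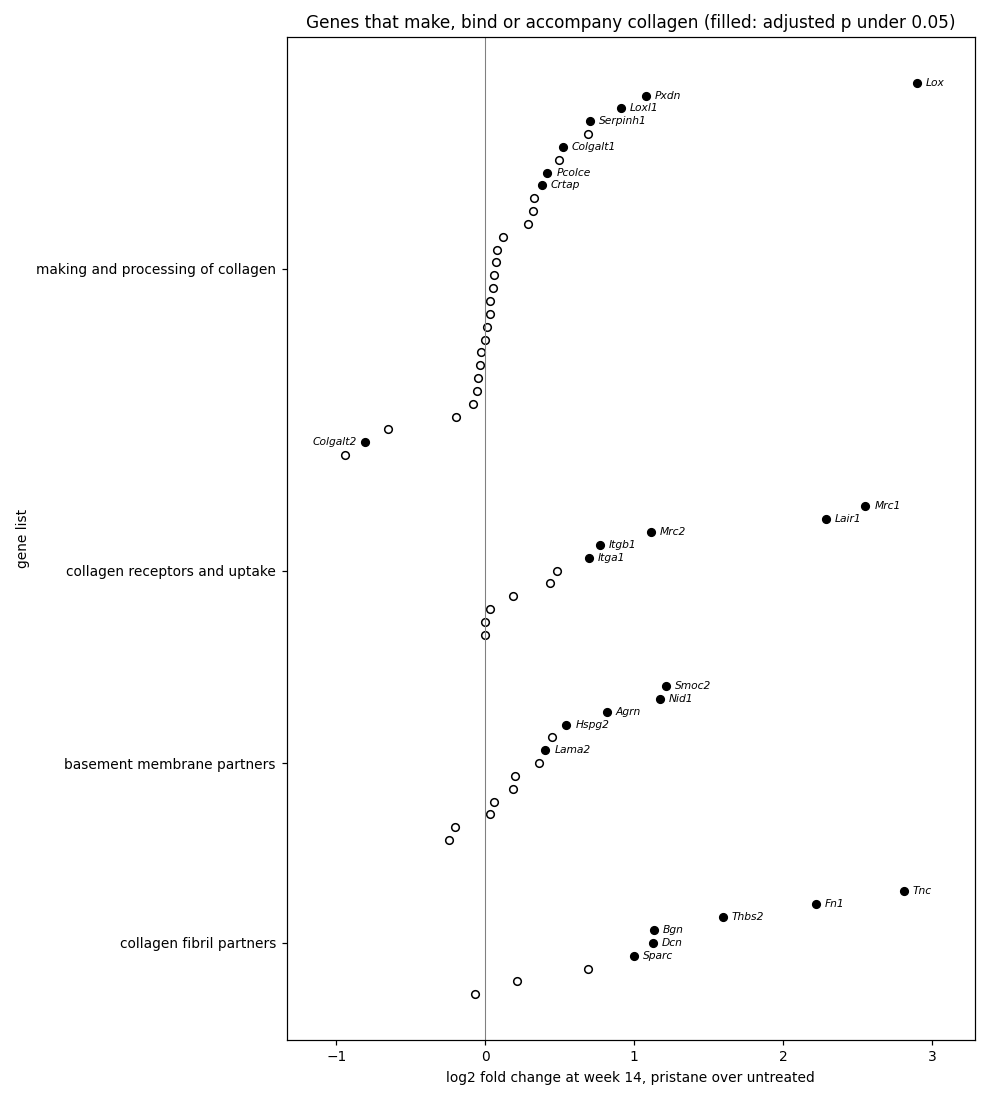
Log2 fold change at week 14 (pristane over untreated, horizontal axis) of the measured genes of 4 lists (vertical axis), with filled points and names where the adjusted p in limma is under 0.05. Of the 9 fibril partners 6 are filled, with Tnc at 2.81, and of the 30 genes for making collagen 8 are filled, with Lox at 2.90 and Colgalt2 at -0.80.

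Some markers of cell types also changed at week 14, where 6.97% of all genes were higher and 4.80% lower. Of 8 measured fibroblast and myofibroblast markers 3 rose (Acta2 by 1.60, Dcn by 1.13 and Pdgfrb by 0.71) and 0 fell. Dcn is also counted among the 6 fibril partners that rose. The mean of the 8 markers per mouse ranged from 5.88 to 6.83 in pristane and 5.62 to 6.0 in untreated kidneys. Of 6 macrophage markers 5 rose, with a median change of 2.82, and their mean ranged from 6.57 to 8.52 in pristane and 5.13 to 5.79 in untreated kidneys. Of 6 endothelial markers 1 fell (Kdr), and of 4 tubule markers 1 fell (Slc12a3), the tubule mean ranging from 9.80 to 10.43 in pristane and 10.39 to 10.79 in untreated kidneys. No marker of perirenal fat (3 measured), renal pelvis and urothelium (5), skeletal muscle (5) or adrenal gland (10) passed. Their means ranged from 5.62 to 7.87 in pristane and 7.09 to 8.81 in untreated kidneys for fat, from 4.51 to 5.49 in pristane and 4.41 to 5.13 in untreated kidneys for urothelium, and from 3.05 to 3.34 in pristane and 3.08 to 3.12 in untreated kidneys for muscle. Krt20, Acta1, Cyp11b1 and Nr5a1 lay at the floor in all 5 untreated kidneys. The mean of the adrenal markers still ranged from 3.47 to 6.22 in pristane and 3.52 to 3.77 in untreated kidneys, the highest being pristane mouse 4. Only the adrenal gland entered a fit, and the part of the other cell types in the collagen levels was not tested. With the mean of the adrenal markers as a covariate, 6 of the 12 genes passed. The values of the other 6 stayed higher with adjusted p-values from 0.0509 (Col4a1) to 0.114 (Col8a1, limma). The share of all genes that passed in that fit was not counted.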

How the data were processed

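Total kidney RNA was labelled with the NuGEN Ovation Biotin system and hybridised to Affymetrix HT MG-430 PM arrays. Per the labels and the study's methods, the authors ran RMA on the probe intensities (Partek is named in the submitters' notes) and deposited log2 values, 1 column per mouse. The methods name R 2.11.1 for the mouse arrays, and the version of RMA is not given in the sources used here. The deposited table holds 45141 probe sets, of which 104 controls were left out. Normalizing all arrays together assumes that most genes do not change, and 20.3% of values lie at the floor of 2.2 (within 0.01), so a change from the floor is a lower bound.

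Probe sets were named from the array annotation, with symbols updated through gene identifiers in RefSeq (GRCm38.p6), and 28898 of 29449 listed probe sets had 1 symbol. The collagen genes and all lists were chosen with earlier results of these data known. Each week was fitted alone in limma 3.58.1 (R 4.3.3) with lmFit and eBayes and Benjamini-Hochberg adjustment, and a gene was called at an adjusted p under 0.05. A fold change over 2 was counted beside it. Background shares count 17097 genes, 1 probe set each. Effects at different weeks were compared by interaction contrasts and age in untreated mice by a slope per week. Named with values were the chains of types I, III, V (Col5a1 and Col5a2), IV, VI, XV and XVIII, further genes that passed a comparison, and up to 4 genes per list that passed with the largest change at week 14. Any other gene was named once its value was known. On simulated data, drawn for each gene as independent normal values, the fits recovered changes put in. Those changes were larger than several of the changes reported here. The simulation held no mice that moved many genes together. Alternatives were median centring, quantile normalization, testing only probe sets over the 40th percentile of the mean, a trended and robust fit, weights per group, a 2-fold minimum, means of probe sets, 1 fit of all 11 groups, the replicate number as a block, an adrenal covariate, all untreated mice of weeks 2 to 14 as controls, and leaving out each mouse (each week for the slope). Probe sets named only by the study's list, the fit without both pristane mice of lowest Col1a1 and the slope without untreated mouse 10 of week 12 were added after seeing the data. Every mouse of week 12 was left out in turn, but untreated mouse 10 was picked for closer description after seeing the data. Figures were drawn with matplotlib 3.10.9. The number of arrays limits the precision.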

Additional observations from a re-analysis of the deposited data

Results flagged for a closer look

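In groups of 5 to 10 mice, a highest or lowest value was picked out by Dixon's test for the 12 collagen genes that rose at week 14. It picked out 24 of 132 groups of values. Chance alone flags about 1 in 20 independent tests, but the 12 genes were measured in the same mice. The tests are therefore not independent, and no excess over chance can be read from the count. Of the 24, 18 were high values and 6 low ones. In untreated kidneys of week 12, mouse 10 stood above the others in Col3a1 (10.44), Col4a2 (10.23), Col6a2 (5.50), Col6a3 (7.86), Col8a1 (8.75) and Col15a1 (8.08). In pristane kidneys of week 4, mouse 4 stood above the others in Col1a1 (8.46), Col4a1 (10.86), Col4a2 (10.03), Col6a2 (5.33) and Col15a1 (7.24). It also had the highest macrophage (6.51), fibroblast (6.37), endothelial (7.61) and urothelium (5.46) marker means of that group, but not those of the other marker lists. In pristane kidneys of week 12, mouse 4 was high in Col5a1 (7.70) and Col6a2 (6.26). In untreated kidneys of week 14, mouse 4 was low in Col1a1 (5.75), Col3a1 (7.35) and Col5a1 (5.50).

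Single values stood out in other groups. In pristane kidneys of week 2, mouse 8 was high in Col3a1 (9.06) and Col6a2 (4.55). In untreated kidneys, Col8a1 was high in mouse 7 of week 0 (6.09) and low in mouse 7 of week 4 (5.21), Col5a1 was high in mouse 5 (6.55) and Col6a2 in mouse 7 (4.57) of week 2, Col6a1 was low in mouse 9 of week 2 (4.85), and Col6a3 was low in mouse 2 of week 8 (5.89).

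The effect of pristane differed between weeks 14 and 2 by the interaction test in 14 collagen genes. The effect at week 14 minus that at week 2 was 3.66 for Col1a1, 3.13 for Col3a1, 2.25 for Col8a1, 1.94 for Col6a2, 1.94 for Col15a1, 1.57 for Col6a1, 1.48 for Col5a1, 1.45 for Col4a1, 1.41 for Col4a2, 1.41 for Col6a3, 1.26 for Col5a2, 0.90 for Col18a1, -0.46 for Col4a4 and -1.35 for Col27a1 on the log2 scale.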

How the results depend on the processing

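The direction of every collagen gene that passed was the same under all alternatives run. Only the larger shifts in the counts of collagen genes are listed below. Among the smaller shifts, the 2-fold minimum turned 12 higher into 11 at week 14. For pristane week 14 against week 2 it turned 15 higher into 12. For the difference of the effects at weeks 14 and 2 it turned 12 higher into 11. For pristane against untreated kidneys at week 14, 12 higher became 6 with the adrenal covariate and 0 with the replicate block, and 0 lower became 2 with the filter, 2 with weights per group, 1 with the mean of probe sets, 3 in the single fit of all groups, 3 with all untreated controls and 2 without both pristane mice of lowest Col1a1. At week 12, 0 higher became 8 in the single fit, 7 with all untreated controls and 3 with the replicate block. At weeks 2 and 8, 0 higher became 2 and 1 with all untreated controls. The labels do not say whether the replicate numbers pair the mice, and the correlations of same-numbered mice cannot decide it. At week 14 these ranged from -0.15 to 0.35 over 5 pairs. The same-numbered untreated mouse was the best match in 2 of the 5. At weeks 2, 4, 8 and 12 it was the best match in 0 of 9, 1 of 9, 0 of 8 and 0 of 8 pairs. The block is given here only. It leaves few residual degrees of freedom at week 14.

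For untreated week 14 against week 0, 2 higher became 7 with median centring, 1 with the 2-fold minimum and 1 with the mean of probe sets, and 6 lower became 1 with the 2-fold minimum. For the slope, 0 higher became 1 with median centring, quantile normalization, the filter or weights, and 2 lower became 0 with weights, 1 with the mean of probe sets and 4 without untreated mouse 10 of week 12. For pristane week 14 against week 12, 1 higher became 9 with median centring, 2 with quantile normalization, 10 with the filter, 2 with weights, 0 with the 2-fold minimum, 7 with the mean of probe sets and 15 in the single fit, and 0 lower became 1 with median centring, quantile normalization, the filter or the mean of probe sets and 3 in the single fit. For pristane week 14 against week 2, 1 lower became 2 with the mean of probe sets and 3 in the single fit. For the difference of the effects at weeks 14 and 12, 0 lower became 1 with the filter and 1 with weights, and at weeks 14 and 2, 2 lower became 1 with the 2-fold minimum. Beside the main fits, shares of all genes were counted only for fits that left out mice. Under the other alternatives, a moved count of collagen genes cannot be told apart from a moved count over the whole array. The causes of these shifts were not tested.

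Leaving out 1 mouse gave 7 to 14 higher and 0 to 2 lower genes at week 14, 0 to 6 higher at week 12, 1 to 2 higher and 4 to 8 lower for untreated week 14 against week 0, 0 to 13 higher and 0 to 1 lower for pristane week 14 against week 12, 14 to 16 higher and 1 lower for pristane week 14 against week 2, 0 to 4 higher and 0 to 3 lower for the difference of the effects at weeks 14 and 12, and 12 to 13 higher and 1 to 2 lower for that at weeks 14 and 2. Leaving out 1 week gave 0 to 1 higher and 0 to 3 lower for the slope. Of the alternatives for single genes, 1423 kept the call and 129 lost it. A gene at the floor on most arrays, such as Col8a2, can hardly show a fall, and a gene near it, such as Col5a3, only a small one. The group of 5 untreated mice limits week 14.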
